A study of Mus musculus with 18 samples.

Results

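The comparison asked how cultured mouse pre-B cells that lack both Artemis and Nfkb2 differed from pre-B cells that lack Artemis alone while both still received interleukin 7 (IL-7). It used 6 of the 18 arrays of the study, chosen by their labels: 3 arrays labelled Art-/-:Nfkb2-/- and 3 arrays labelled Art-/-, all taken at day 0. Values of 3 Rag-/- arrays at day 0 and of the same genotypes 2 days after IL-7 withdrawal are set beside them. Both genotypes, and the Rag-/- cells used below as an outside point, also carried transgenes for an immunoglobulin heavy chain (IgH) and for Bcl2, which keeps cells alive when survival signals fail. The cells were bone marrow cultures of 4 to 6 week old mice with mixed C57BL/6 and BALB/c ancestry, grown for 7 to 10 days in 5 ng/mL IL-7. The genotype field of the labels gives Nfkb2 without a knockout mark, whereas the sample titles carry it, and the titles were followed. Each array was 1 of 3 cultures that the design calls independent. The sources used here do not give the number of mice per culture.

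A pre-B cell has assembled its heavy chain and next opens its light-chain loci with the RAG recombinase. RAG leaves hairpin-sealed DNA ends that the nuclease Artemis opens, so without Artemis the breaks persist and signal. NF-kB is among the pathways such breaks switch on. Nfkb2 encodes p100, which the kinases NIK and IKK alpha have processed to p52. With RelB, p52 forms the noncanonical NF-kB dimer, and unprocessed p100 also holds other NF-kB dimers in the cytoplasm.

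Levels below are normalised log2 intensities, and a difference is the Art:Nfkb2-labelled mean minus the Art-labelled mean on that scale. A gene was called where the adjusted p of limma's moderated test was under 0.05, and a probe was detected where its detection p was under 0.01. The 6 arrays resembled each other closely. Raw median intensities ran from 129.3 to 152.5, detected probes from 10393 to 10862 of 25697, and correlations from 0.990 to 0.992 within the Art:Nfkb2-labelled group, 0.989 to 0.992 within the Art-labelled group and 0.976 to 0.986 between the groups. Markers fitted the pre-B label. Of 13 pre-B markers with a probe 12 were tested, with 0 calls by limma and 1 at an unadjusted p under 0.05, and Cd79a, Cd79b, Vpreb1, Pax5 and Ebf1 were detected on all 6 arrays. The summed linear level of the 12 ran from 122592 to 132220 on Art:Nfkb2-labelled arrays and from 128963 to 135653 on Art-labelled arrays. Art:Nfkb2-labelled replicate 3 stood apart in sex-linked genes. It read 10.46 for the Y-linked Eif2s3y and 4.66 for Xist, the RNA of the inactive X chromosome, whereas the other 5 arrays read 4.54 to 4.71 and 9.08 to 10.61. Counts are therefore also given without that culture.

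Members of several immune gene groups were higher in the Art:Nfkb2-labelled cells. MHC class II genes, complement C1q and Fc receptor genes, inflammatory chemokines, immediate early genes and GIMAP genes all held called members, each of them higher, and the largest single difference was that of the protease gene Ctse. All of these lists but that of class II were made after the values were seen, so their counts describe the data and test nothing. Of 8446 genes tested, 371 were called (4.39%). Higher levels made up 254 of these calls (3.01% of the genes tested) and lower levels 117 (1.39%). Arrays of the groups did not overlap for 1970 genes (23.3%). At 2-fold or more, 122 were higher and 26 lower (1.75% together). The median difference over all tested genes was 0.007. Without the culture of Art:Nfkb2-labelled replicate 3, 197 genes were called, and leaving out any single array of the 6 gave 187 to 258.

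**Figure D1:**
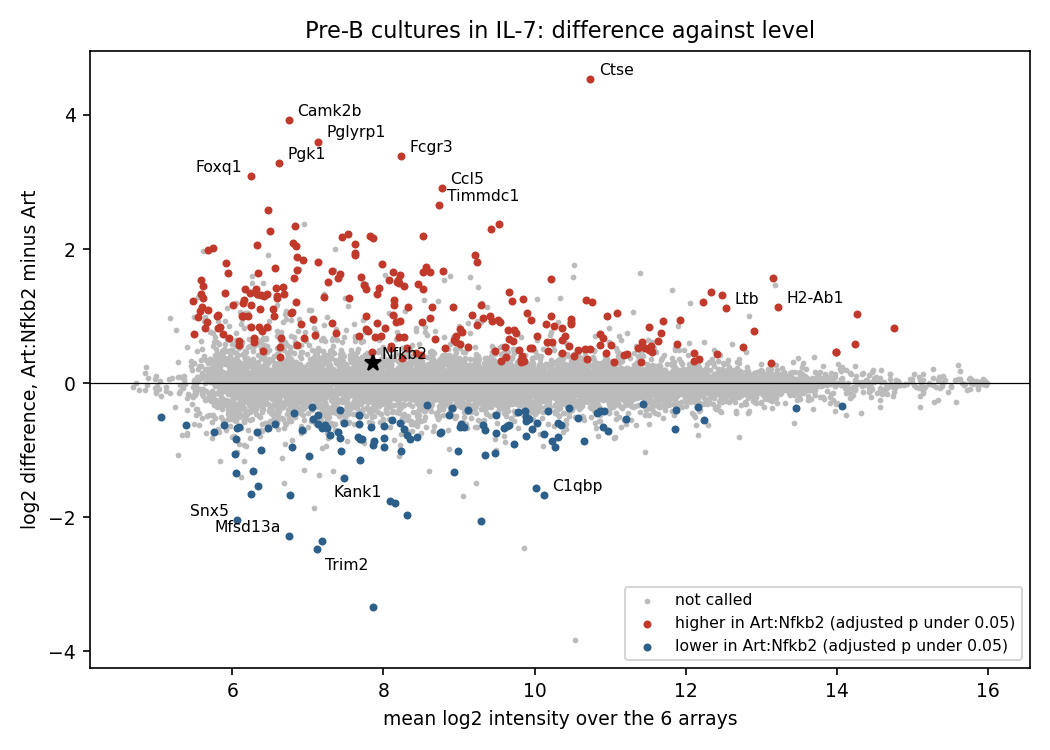
Each point is 1 of the 8446 tested genes in cells kept in IL-7, with its mean log2 intensity over the 6 arrays on the x axis and its log2 difference, Art:Nfkb2 minus Art, on the y axis. Coloured points are the 254 genes called higher and the 117 called lower, and the star marks Nfkb2, which was not called.

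Nfkb2 itself did not read lower on the arrays labelled as lacking it. Its probe read 8.09, 8.17 and 7.78 on Art:Nfkb2-labelled arrays and 7.80, 7.59 and 7.72 on Art-labelled arrays. The groups overlapped, with 2 of 3 Art:Nfkb2-labelled arrays above every Art-labelled array, and the difference was 0.31 (SE 0.12, 95% interval 0.06 to 0.56, limma adjusted p = 0.188). The probe's place relative to the deleted part of the gene is unknown here, so this reading does not check the label. Rag1, the catalytic subunit of the recombinase, averaged 9.76 ± 0.38 in Art:Nfkb2-labelled cells against 9.45 ± 0.26 in Art-labelled cells (SD, n = 3 each) and was not called (limma adjusted p = 0.503). Rag2 was not well above background on any of the 6 arrays. Artemis's own gene was not analysed here.

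The rest of the NF-kB family read slightly higher in Art:Nfkb2-labelled cells, and 1 member passed the test. Nfkbib, which encodes the inhibitor I kappa B beta, read 9.19, 9.38 and 9.23 in Art:Nfkb2-labelled cells against 8.64, 8.72 and 8.61 in Art-labelled cells, a difference of 0.61 (SE 0.09, limma adjusted p = 0.000669). Every Art:Nfkb2-labelled array lay above every Art-labelled array. Of 11 tested subunit and inhibitor genes 10 had a positive difference, with a median of 0.26, and 5 had all Art:Nfkb2-labelled arrays above all Art-labelled arrays (12.7% of all genes did). Bcl3, a nuclear partner of p52, read 9.81, 10.09 and 9.81 against 9.49, 9.51 and 9.11, a difference of 0.54 that missed the threshold (limma adjusted p = 0.0565). Relb differed by 0.35, Rela by 0.15, Rel by 0.02, Nfkbia, encoding I kappa B alpha, by 0.17 and Nkrf, an NF-kB repressor, by -0.16, none of them called. Relb, the partner of p52, read 10.70, 10.67 and 10.68 against 10.43, 10.45 and 10.13, apart by group although not past the test (limma adjusted p = 0.287). Rela averaged 12.30 ± 0.06 in Art:Nfkb2-labelled cells against 12.15 ± 0.14 in Art-labelled cells (SD, n = 3 each).

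Ligands, kinases and adaptors upstream of those subunits were called at shares of 5.26% and 7.41%, near the 4.39% of all genes, whereas 15.4% of NF-kB target genes were called higher, against 3.01% of all genes. Ltb encodes lymphotoxin beta, a TNF-family ligand whose receptor drives the noncanonical pathway. It read 13.19, 13.12 and 12.97 in Art:Nfkb2-labelled cells, whereas the Art-labelled cells averaged 11.97 ± 0.05 (SD, n = 3). No array of the groups overlapped, and the 2.18-fold difference was called (log2 1.12, SE 0.18, limma adjusted p = 0.00143). Ltb was the only called gene of 19 tested TNF-superfamily ligands and receptors, whose median difference was -0.10. Of 27 kinases, adaptors and regulators, Traf1, a signalling adaptor, read 7.11, 6.71 and 7.45 in Art:Nfkb2-labelled cells against 6.35, 5.64 and 5.95 in Art-labelled cells, a called difference of 1.11 (limma adjusted p = 0.00822). Ikbke, an IKK-related kinase, was lower, with a difference of -0.60 (limma adjusted p = 0.0222) that lost its call when replicate 1 or 3 of either group was left out, and the median of the 27 was 0.13. Of 39 tested NF-kB target genes, 6 were called and all were higher: Ccl5, Il1b, Cxcl1, Tnfaip2, Junb and Irf1. The median of the 39 was 0.23, or 0.19 with undetected genes at their bound, and with the level of myeloid markers as a covariate 2 of the 39 were called. Tnfaip2, a TNF-induced gene, read 7.47, 7.14 and 7.25 in Art:Nfkb2-labelled cells against 5.95, 5.84 and 5.81 in Art-labelled cells, where it was undetected, and was at least 2.15-fold higher (limma adjusted p = 0.00247). Irf1, an interferon-response factor, was the smallest of these at 0.46, reading 14.22 ± 0.14 in Art:Nfkb2-labelled cells against 13.76 ± 0.09 in Art-labelled cells (SD, n = 3 each).

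**Figure D2:**
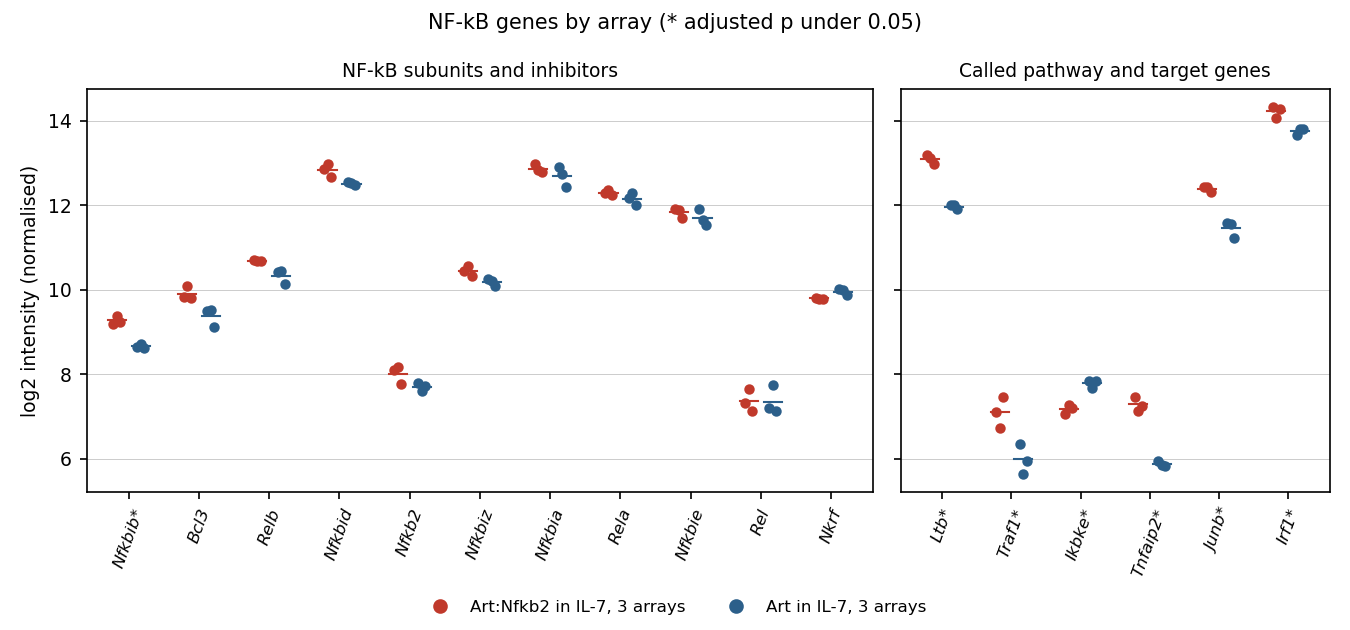
Normalised log2 intensity of the 11 tested NF-kB subunit and inhibitor genes and of 6 called pathway or target genes. Points are arrays, with Art:Nfkb2-labelled arrays left of Art-labelled arrays, bars are group means and asterisks mark called genes. Nfkbib, Ltb, Traf1, Tnfaip2, Junb and Irf1 show no overlap between the groups and lie higher in Art:Nfkb2, and Ikbke lies lower.

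Cells labelled Rag-/- in IL-7 offer an outside point, and without RAG no such breaks are made. They also differed in sex-linked genes. Of 3 tested, 1 was called higher and 2 lower in Art-labelled than in Rag-labelled cells. Genotype and sex therefore cannot be told apart between these 2 groups. Most of the NF-kB family read higher in both Artemis-deficient groups than in Rag-labelled cells. Of the 11 genes 7 were called higher in Art:Nfkb2-labelled than in Rag-labelled cells (6.68% of all genes tested were, with 11.4% called in all), and 6 were higher in Art-labelled than in Rag-labelled cells (3.63%, with 6.46% called in all). The 2 comparisons share the Rag-labelled arrays. Bcl3 differed from Rag-labelled cells by 2.65 in Art:Nfkb2-labelled and by 2.11 in Art-labelled cells, Nfkb2 by 1.34 and 1.04, Relb by 1.36 and 1.02, and Ltb by 3.45 and 2.33. Genes for which the study is known gave 0 higher calls and 1 lower call (Spic) of 11 tested by limma, with 5 of the 11 at an unadjusted p under 0.05. Pim2, a survival kinase, averaged 9.99 ± 0.16 in Art:Nfkb2-labelled and 9.97 ± 0.25 in Art-labelled cells (SD, n = 3 each), a difference of 0.02 with a 95% interval of -0.50 to 0.54. Cd40, a TNF-family receptor, differed by 0.58 and Swap70, a signalling protein of B cells, by 0.32, neither called, and Syk, Blnk, Bclaf1, Cd69 and Gadd45a differed by -0.28 to 0.16. Spic, an Ets-family repressor, was not well above background on any of the 6 arrays, so it is given no fold, and its call was lost in 14 of 17 alternatives, among them each of the 6 arrays left out.

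Promoter stretches of 3 called genes that hold a kB motif are shown, since NF-kB dimers are known to bind such motifs. The motif searched was GGG, any 2 bases, then TTTCC, on both strands in the 250 bases before each RefSeq gene start (GRCm38.p6). It occurs in 464 of 32851 such windows (1.41%) and in 88 of 6410 windows of tested genes (1.37%). Of the 254 genes called higher, 196 have a window and 9 hold it (4.59%), namely Ccl9, Cxcl1, Cxcl2, Fcgr3, Ltb, Mif4gd, Neurl3, Pglyrp1 and Shisa5. Of the genes called lower, 0 of 87 windows hold it, which says only that these letters are not in those windows. The stretches are chr17:35194340-35194459 (plus strand) for Ltb, chr5:90891094-90891213 (plus strand) for Cxcl1 and chr7:18884517-18884636 (plus strand) for Pglyrp1, written 5′ to 3′ along the gene with the motif in capitals:
Ltb: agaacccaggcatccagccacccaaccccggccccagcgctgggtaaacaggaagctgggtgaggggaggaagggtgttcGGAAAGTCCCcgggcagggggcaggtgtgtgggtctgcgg
Cxcl1: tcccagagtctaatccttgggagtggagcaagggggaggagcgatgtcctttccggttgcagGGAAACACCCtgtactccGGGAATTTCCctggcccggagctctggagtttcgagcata
Pglyrp1: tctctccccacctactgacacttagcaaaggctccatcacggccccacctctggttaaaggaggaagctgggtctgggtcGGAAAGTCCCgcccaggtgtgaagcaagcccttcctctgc
In Ltb and Pglyrp1 the match is read on the opposite strand and begins 87 and 93 bases before the start. Cxcl1 has 2 matches, beginning 89 and 71 bases before it. A match describes the letters and not binding.

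MHC class II genes, whose products present peptides to CD4 T cells and mark maturing B cells and myeloid cells, were called higher for most tested members. Of 14 tested genes 8 were called higher (57.1%, against 3.01% of all genes) and 0 lower, with a median of 0.87. Cd74, the invariant chain that chaperones class II molecules, read 15.15, 15.11 and 15.26 in Art:Nfkb2-labelled cells against 14.28, 14.48 and 14.27 in Art-labelled cells. The groups did not overlap, and the difference was 0.83 (SE 0.13, limma adjusted p = 0.00143). H2-Eb1, a class II beta chain, read 13.02, 12.79 and 13.60 against 11.84, 12.01 and 11.61, 2.50-fold higher (limma adjusted p = 0.00369). H2-Ab1, the other beta chain, read 13.55, 13.49 and 14.34 against 12.63, 12.79 and 12.56, 2.20-fold higher (limma adjusted p = 0.0147). Both genes were separated by group, and replicate 3 was the highest of the Art:Nfkb2-labelled arrays in each.

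Replicate 3 was also the highest Art:Nfkb2-labelled array for the 6 other called class II genes. The alpha chain H2-Aa was 2.36-fold higher, H2-Eb2 1.64-fold, and the peptide-exchange genes H2-DMa, H2-DMb1 and H2-DMb2 were 2.06-, 2.39- and 2.19-fold higher. Ciita, the master activator of class II transcription, read 9.47, 9.38 and 10.29 in Art:Nfkb2-labelled cells against 8.88, 9.26 and 8.28 in Art-labelled cells. The groups did not overlap, but the difference of 0.91 had an SE of 0.37 and was not called (limma adjusted p = 0.218). The exchange inhibitors H2-Oa and H2-Ob differed by 0.33 and 0.20, the protease gene Ctss by 0.30 and the class II regulators Rfxap and Rfxank by less than 0.1 in either direction, none of them called. MHC class I and immunoproteasome genes gave 0 calls of 18 tested by limma, and 6 had an unadjusted p under 0.05. Their median was 0.17. Myeloid cells also express class II, and the summed linear level of 11 myeloid markers ran from 17627 to 27135 on Art:Nfkb2-labelled arrays and from 7388 to 8729 on Art-labelled arrays. The class II count rested partly on single arrays. It was 5 of 14 without the culture of Art:Nfkb2-labelled replicate 3, 3 without that array alone, 4 without Art-labelled replicate 1 or 3 and 5 without Art-labelled replicate 2. Calls over all genes fell as well, to 197 without that culture and to 187 to 258 without a single array. The list's median was 0.70 at the lowest and 0.98 at the highest in these settings.

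**Figure D3:**
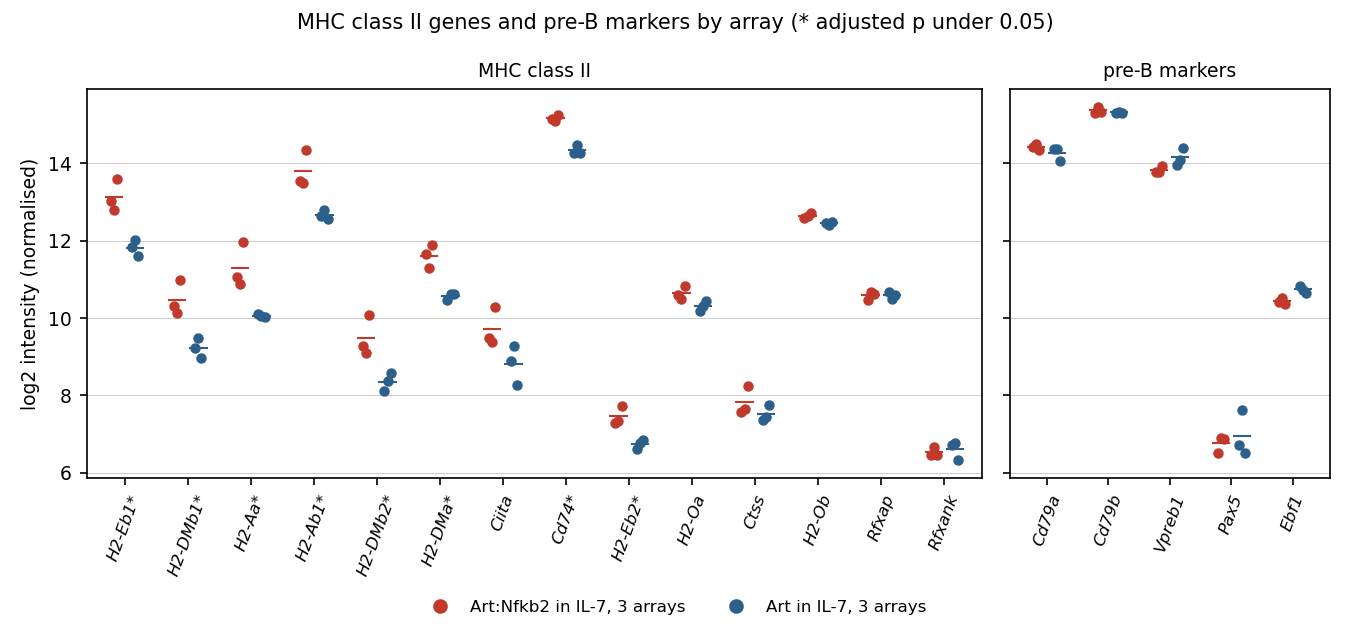
Normalised log2 intensity of the 14 tested MHC class II genes and of 5 pre-B markers, with Art:Nfkb2-labelled arrays left of Art-labelled arrays. Points are arrays, bars are means and asterisks mark the 8 called genes. H2-Aa, H2-Ab1, H2-Eb1, the H2-DM genes and Cd74 lie higher in Art:Nfkb2, with replicate 3 the highest, while the pre-B markers shown were not called.

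Class II promoters are known for a Y box, here searched as CTGATTGG on both strands, which contains a CCAAT box on its other strand. It occurs in 1258 of 32851 windows (3.83%), in 371 of 6410 windows of tested genes (5.79%) and in 4 of 10 windows of the class II list. In all genes called higher the share was 8 of 196 windows (4.08%). The 4 class II promoters are shown because 3 of these genes were called and H2-Oa was not. The stretches are chr17:34287837-34287956 (minus strand) for H2-Aa, chr17:34305723-34305842 (plus strand) for H2-Eb1, chr17:34325490-34325609 (plus strand) for H2-Eb2 and chr17:34092251-34092370 (plus strand) for H2-Oa, from RefSeq on GRCm38.p6, with the Y box in capitals:
H2-Aa: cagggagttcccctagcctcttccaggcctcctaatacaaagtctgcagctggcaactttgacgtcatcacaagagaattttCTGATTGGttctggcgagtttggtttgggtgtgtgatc
H2-Eb1: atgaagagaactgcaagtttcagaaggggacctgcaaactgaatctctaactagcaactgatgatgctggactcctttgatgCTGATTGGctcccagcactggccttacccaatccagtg
H2-Eb2: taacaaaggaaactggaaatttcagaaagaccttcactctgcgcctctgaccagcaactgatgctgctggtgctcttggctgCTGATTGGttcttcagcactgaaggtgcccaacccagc
H2-Oa: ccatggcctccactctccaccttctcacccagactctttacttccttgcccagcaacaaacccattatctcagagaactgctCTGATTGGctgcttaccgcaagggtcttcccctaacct
The Y box begins 51 bases before the start in H2-Aa, 62 in H2-Eb1, 103 in H2-Eb2 and 46 in H2-Oa.

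Complement C1q and Fc receptor genes, which macrophages use to clear opsonised material, had the highest median difference of the lists. Fcgr3, an Fc receptor for IgG, read 10.50, 9.59 and 9.69 in Art:Nfkb2-labelled cells against 6.70, 6.51 and 6.40 in Art-labelled cells. The groups lay far apart, and the difference was 10.5-fold (log2 3.39, SE 0.34, limma adjusted p = 3.82e-05). The complement subunit C1qb read 11.12, 10.33 and 10.70 against 8.36, 8.69 and 7.98, 5.17-fold higher (limma adjusted p = 0.0326). C1qc was 4.57-fold higher and C1qa, which no Art-labelled array detected, at least 2.73-fold higher. Fcgr4 was 4.49-fold higher, and Fcrls and Fcgrt, each undetected in Art-labelled cells, were at least 3.01-fold and at least 1.92-fold higher. These 7 are the called genes among 12 tested C1q and Fc receptor genes (58.3%, against 3.01% of all genes called higher). The median of the 12 was 1.74, or 1.20 with undetected genes at their bound. Of the 12, 4 were undetected in 1 of the 2 groups and could pass the detection filter through the other. Fcgr3 is also among the myeloid markers below. The count was 4 without Art:Nfkb2-labelled replicate 1, without replicate 3 or its culture, or without Art-labelled replicate 3. Fcgr2b, Fcrla, Fcrl1 and Fcer2a, which B cells use, were not called, at 0.01, 0.38, 0.45 and 0.52. Fcer1g, the shared gamma chain, read 4.57 on Art:Nfkb2-labelled replicate 1 and 10.30 to 11.29 on the other 5 arrays.

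Myeloid markers moved with these genes. All 11 tested markers had a positive difference and 6 were called (Fcgr3, Adgre1, Cd14, Ctsg, Clec7a and Elane). That is 54.5%, against 3.01% of all genes called higher. Adgre1, Ctsg, Clec7a and Elane were detected on no Art-labelled array and could pass the detection filter through the group where they read high. The share therefore describes these data and tests nothing. The median of the 11 was 1.33, or 0.72 with undetected genes at their bound. The summed linear level of the 11 ran from 17627 to 27135 on Art:Nfkb2-labelled arrays, from 7388 to 8729 on Art-labelled arrays and from 7808 to 22918 on Rag-labelled arrays in IL-7. Adgre1, a macrophage surface receptor, read 8.49, 7.21 and 7.92 against 5.88, 6.20 and 5.38, undetected in the Art-labelled group and at least 3.23-fold higher (limma adjusted p = 0.0346). The lysozyme genes Lyz1 and Lyz2 differed by 1.46 and 1.64, not called (limma adjusted p = 0.0729 and 0.0795). The defining markers Itgam, Ccr2, Cd163 and Ngp were detected on none of the 6 arrays, and Csf3r on 1. The marker count was 1 without Art:Nfkb2-labelled replicate 3, its culture or Art-labelled replicate 3, 2 without Art:Nfkb2-labelled or Art-labelled replicate 1 and 3 without Art-labelled replicate 2. More cells of a myeloid type and more of this RNA per cell cannot be told apart in bulk RNA. With the mean myeloid marker level as a covariate, chosen after the data were seen, 135 genes were called in place of 371, class II gave 1 call and the C1q and Fc receptor list 2. The mean log2 level of the 11 markers ran from 8.005 to 9.066 on Art:Nfkb2-labelled arrays and from 7.064 to 7.4 on Art-labelled arrays. The covariate thus separated the groups, and the fit cannot tell its part from that of the genotype. The part of myeloid RNA in the class II, chemokine and immediate early differences was not tested.

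Chemokine genes also held many higher calls. Of 14 tested CC and CXC genes all had a positive difference and 8 were called (57.1%, against 3.01% of all genes called higher). Their median was 1.62, or 0.81 with undetected genes at their bound. Of the 14, 6 were undetected in 1 of the 2 groups, among them the called Cxcl1, Ccl2, Cxcl2 and Ccl6. Such genes could pass the detection filter through the group where they read high, so the share describes these data and tests nothing. The summed myeloid marker level was 17627 to 27135 on the Art:Nfkb2-labelled arrays against 7388 to 8729 on the Art-labelled arrays. Ccl5, a chemoattractant of T cells and monocytes, read 10.12, 10.00 and 10.56 in Art:Nfkb2-labelled cells against 6.67, 7.58 and 7.71 in Art-labelled cells, 7.49-fold higher (limma adjusted p = 0.00129). The lowest Art:Nfkb2-labelled array exceeded the highest Art-labelled array by over 2 log2 units. Ccl7, a monocyte attractant, was 4.69-fold higher and Cxcl16 and Ccl9 3.57- and 3.50-fold higher. Cxcl1, a neutrophil attractant, was undetected in Art-labelled cells and at least 1.49-fold higher, and Ccl2, Cxcl2 and Ccl6 were at least 1.55-, 1.97- and 1.37-fold higher. Ccl3 and Ccl4 read higher by 1.60 and 1.58 without a call (limma adjusted p = 0.0541 and 0.0989), and Cxcl12, Ccl11, Ccl25 and Ccl27a differed by less than 0.1. Without the culture of Art:Nfkb2-labelled replicate 3 the count was 6 of 14, and with the myeloid covariate 3. Ccl9 lost its call when any single array of the 6 was left out, and Cxcl16 without Art:Nfkb2-labelled replicate 1 or 3. Il1b, an inflammatory cytokine gene, read 7.97, 7.32 and 8.72 against 5.43, 5.31 and 6.25, 5.05-fold higher (limma adjusted p = 0.0161). Its call was lost without Art:Nfkb2-labelled replicate 1 or 3 or Art-labelled replicate 1 or 2.

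Of 19 tested immediate early genes, the first to respond to a stimulus, 5 were called higher (26.3%, against 3.01% of all genes) and 0 lower. This list was made after the values were seen. Fosb, an AP-1 subunit, read 8.32, 8.82 and 8.47 in Art:Nfkb2-labelled cells against 6.69, 6.51 and 5.89 in Art-labelled cells, 4.51-fold higher (limma adjusted p = 0.000591). Fos read 10.17, 10.24 and 10.07 against 8.45, 8.40 and 7.92, 3.75-fold higher (limma adjusted p = 0.00325). Both genes were tight within the Art:Nfkb2-labelled group and apart from the Art-labelled group. Dusp1, a MAP kinase phosphatase, was 1.99-fold and Junb 1.92-fold higher, and Ier2 was called too. Ier2 was detected on 1 Art:Nfkb2-labelled and no Art-labelled array and is given no fold. The median of the 19 was 0.44, or 0.42 with Ier2 set at 0. The count was 3 without Art:Nfkb2-labelled replicate 1 or Art-labelled replicate 3, and 2 with the myeloid covariate. Egr1 and Egr2 differed by 0.61 and 0.79 without a call, and Jun by 0.34.

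Rag-labelled cells in IL-7 again give an outside point. In Art-labelled against Rag-labelled cells in IL-7, 7 of the 19 immediate early genes were called lower (2.83% of all genes tested were), whereas in Art:Nfkb2-labelled against Rag-labelled cells 1 was (4.72%). These comparisons share arrays with each other and with that of the Artemis-deficient genotypes. Fosb differed from Rag-labelled cells by -0.62 in Art:Nfkb2-labelled and by -2.80 in Art-labelled cells, Fos by -0.11 and -2.02, and Junb by 0.36 and -0.58. Camk2b, a calcium-dependent kinase, read 8.50, 8.70 and 8.91 in Art:Nfkb2-labelled cells. Art-labelled cells read 4.81, 4.67 and 4.88, where the gene was undetected, and Rag-labelled cells read 9.04, 10.48 and 10.31. The difference from Art-labelled cells was at least 5.75-fold (limma adjusted p = 5.36e-05).

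**Figure D4:**
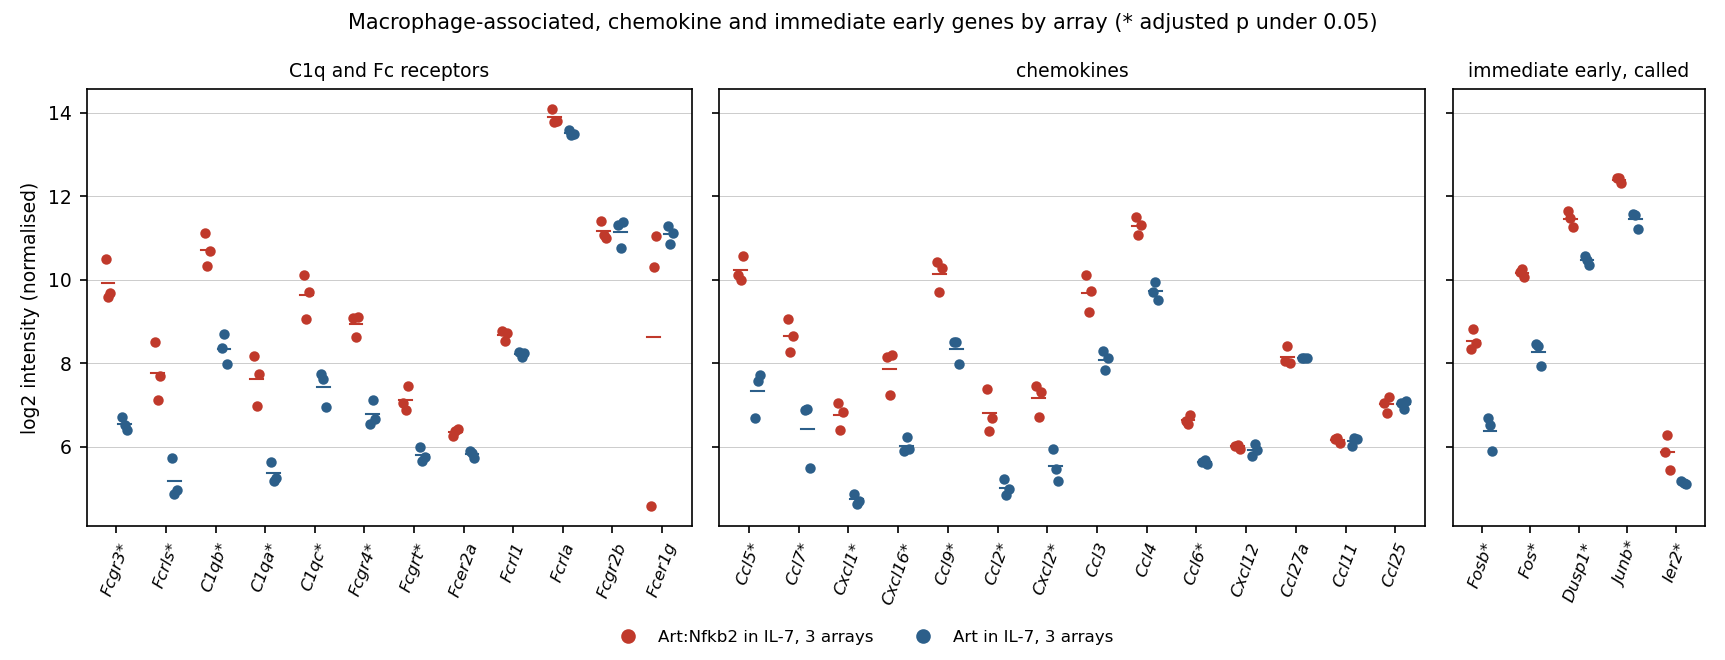
Normalised log2 intensity of 12 C1q and Fc receptor genes, 14 chemokine genes and the 5 called immediate early genes. Points are arrays, with Art:Nfkb2-labelled arrays left of Art-labelled arrays, bars are means and asterisks mark called genes. The called genes lie higher in Art:Nfkb2 with no overlap, and Fcer1g is low on 1 Art:Nfkb2-labelled array.

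Outside these groups, the largest differences belonged to genes of varied function. Ctse encodes cathepsin E, an endosomal protease of immune cells. It read 13.54, 12.74 and 12.74 in Art:Nfkb2-labelled cells against 8.20, 8.81 and 8.39 in Art-labelled cells, a 23.2-fold difference (log2 4.54, SE 0.25, limma adjusted p = 3.82e-08), and Rag-labelled cells read 9.06 to 9.75. It was the largest difference among the called genes. Pglyrp1, a peptidoglycan-binding protein of innate immunity, read 8.85, 8.73 and 9.22 and was undetected in Art-labelled and Rag-labelled cells, at least 6.74-fold higher than in Art-labelled cells (limma adjusted p = 1.04e-06). Foxq1, a forkhead factor, was likewise undetected in both and at least 3.05-fold higher than in Art-labelled cells. Timmdc1, a mitochondrial complex I assembly factor, averaged 10.06 ± 0.54 in Art:Nfkb2-labelled cells against 7.40 ± 0.14 in Art-labelled cells (SD, n = 3 each), 6.32-fold higher. Tgfbi, an extracellular matrix protein, was 4.91-fold and Upp1, a uridine phosphorylase, 4.58-fold higher.

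Pgk1, a glycolytic enzyme, read 8.32, 8.29 and 8.18 in Art:Nfkb2-labelled cells against 5.13, 4.78 and 5.03 in Art-labelled cells. Its 1 probe was detected on no Art-labelled or Rag-labelled array, and the difference was at least 4.24-fold (limma adjusted p = 2.84e-10). Of 16 tested glycolysis genes Pgk1 was the only one called. The other 15 ran from -0.31 for Pfkp to 0.10 for Aldoc. The transcript that the probe reads was not examined.

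Of 7 tested GIMAP genes, small GTPases that support lymphocyte survival, 4 were called higher (57.1%, against 3.01% of all genes). Gimap7 read 9.41, 9.51 and 9.95 in Art:Nfkb2-labelled cells against 8.03, 7.69 and 8.12 in Art-labelled cells, 3.20-fold higher (limma adjusted p = 0.00112). Gimap3 was 2.65-fold, Gimap8 2.00-fold and Gimap5 1.75-fold higher. All arrays of the 4 were separated by group. The 3 other tested members, Gimap1, Gimap6 and Gimap9, were not called, with Gimap9 at -0.05, and the median of the 7 was 0.81. Gimap5 lost its call without Art:Nfkb2-labelled replicate 2 or 3 or Art-labelled replicate 3.

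Pre-B-cell receptor signalling genes were called at about the share of all genes (4.55% against 4.39%), and pre-B differentiation genes at 14.8%. Of 22 pre-B-cell receptor signalling genes 1 was called, Rasgrp3, a Ras activator downstream of antigen receptors, 2.73-fold higher (limma adjusted p = 0.0022), and their median was -0.03. Of 27 pre-B differentiation genes, Bcl6, a transcriptional repressor, differed by 0.58, Klf2, a quiescence factor, by 0.63 and Ms4a1, the CD20 gene, by 1.57, all called higher, and the undetected Spic was the 1 lower call. Klf2 was not called without Art-labelled replicate 3, nor Ms4a1 without any 1 of 5 arrays. Of 19 adhesion and homing genes, Rgs1, a G-protein regulator, Gpr183, an oxysterol receptor, and Itgb7, an integrin chain, were 2.78-, 2.06- and 2.00-fold higher (15.8% of the list). Without Art:Nfkb2-labelled replicate 1, without the culture of replicate 3 or with the myeloid covariate, none of these 3 was called. Of 18 IL-7 receptor and STAT5 genes the cyclin gene Ccnd3 alone was called, at 13.89 ± 0.02 in Art:Nfkb2-labelled cells against 14.24 ± 0.06 in Art-labelled cells (SD, n = 3 each). Ccnd3 lost its call in 9 of 18 alternatives, among them 5 of the 6 arrays left out. Of 31 p53 targets, Dram1 was called higher and none lower, with a median of -0.07, and the 13 BCL2 family genes gave 0 calls by limma, 1 at an unadjusted p under 0.05, and a median of -0.01. Of 25 interferon-stimulated genes 3 were higher, Igtp by 0.73, Ddx58 by 0.53 and Samhd1 by 0.47 (of all genes 3.01% were). That count was 1 with median scaling or without Art:Nfkb2-labelled replicate 3, and none of the 3 was called without Art:Nfkb2-labelled replicate 1 or with only the 6 arrays fitted. Of 19 break-repair genes Chek2, a checkpoint kinase gene, was called at -0.73. The Chek2 call was lost without Art:Nfkb2-labelled replicate 1 or 2 or Art-labelled replicate 1, and that of Dram1 without Art:Nfkb2-labelled replicate 1 or Art-labelled replicate 3. Among markers of other cells, 1 of 3 NK markers was called (Nkg7, a cytotoxic granule gene, at 1.92) and 2 of 8 mature B and plasma cell markers (Ms4a1 and Cd55). The 3 T cell, 1 erythroid, 1 mast, 3 stromal and 3 early progenitor markers tested gave 0 calls by limma, and 1, 0, 0, 1 and 2 of them had an unadjusted p under 0.05.

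Cell-division genes read lower in Art:Nfkb2-labelled cells, and few of them passed the test. Of 40 tested proliferation genes 39 had a negative difference, and 32 had all Art:Nfkb2-labelled arrays below all Art-labelled arrays (10.6% of all genes did). The median of the 40 was -0.39, and 2 were called, both lower. That is 5% of the list, against 4.39% of all genes called and 1.39% called lower. Kif11, a mitotic kinesin, read 10.57, 10.66 and 10.62 against 11.42, 11.38 and 11.20, a difference of -0.71 (SE 0.18, limma adjusted p = 0.0317). Foxm1, a transcription factor of dividing cells, read 9.62, 9.66 and 9.62 against 10.18, 10.16 and 10.09, a difference of -0.51 (limma adjusted p = 0.0247). Neither gene overlapped between the groups. Neither of the 2 calls held when any single array of the 6 was left out. The cell-cycle kinase gene Cdk1 differed by -0.44, Top2a by -0.37 and Pcna by -0.11, none called, and 16 of the 40 had an unadjusted p under 0.05. Of 46 replication-dependent histone genes 2 were higher and 2 lower (8.7% called, against 4.39% of all genes), with a median of -0.20.

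Genes with lower levels were fewer and smaller in difference. Trim2, a ubiquitin ligase, read 5.19, 5.45 and 7.02 in Art:Nfkb2-labelled cells against 8.04, 8.98 and 8.04 in Art-labelled cells, 5.53-fold lower (limma adjusted p = 0.0051). Art:Nfkb2-labelled replicate 3 lay nearest to the Art-labelled arrays. C1qbp, a mitochondrial matrix protein that also binds C1q, read 9.18, 9.19 and 9.48 against 11.03, 10.64 and 11.19, 3.18-fold lower (limma adjusted p = 0.00011). Cd1d1, which presents lipids to NKT cells, read 9.08, 8.89 and 9.76 against 10.84, 10.79 and 10.79, 2.96-fold lower (limma adjusted p = 0.000591). Both were separated from the Art-labelled arrays by over 1 log2 unit. Sass6, a centriole assembly protein, was 3.46-fold, Kank1, an actin regulator, 3.39-fold and Fnbp1l, a membrane-curving protein, 3.16-fold lower. Snx5, Col26a1 and Htra3 were undetected in Art:Nfkb2-labelled cells and at least 1.96-, 1.94- and 2.00-fold lower. Kansl1l was 4.14-fold and Rbbp9 2.66-fold lower, and 3 of the 15 largest are probes with no gene symbol. One of them, ILMN_2455192, read 8.58, 5.07 and 4.92 against 9.62, 9.56 and 9.40, with Art:Nfkb2-labelled replicate 1 near the Art-labelled level.

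Genes near Nfkb2 on chromosome 19 were read out by their order in the RefSeq table. Within 20 table positions of it, 14 other genes were tested, and 3 were called, all lower, against 1.39% of all genes. Mfsd13a, a membrane transporter family gene 8 positions away, read 5.84, 5.71 and 5.30 in Art:Nfkb2-labelled cells against 7.60, 7.95 and 8.14 in Art-labelled cells and was undetected in the Art:Nfkb2-labelled group. It was at least 3.45-fold lower (limma adjusted p = 1.85e-06). Cuedc2, 4 positions away, differed by -0.45 and Arl3, a small GTPase 13 positions away, by -0.63. Cuedc2 lost its call without Art:Nfkb2-labelled replicate 1 or 3 or Art-labelled replicate 2 or 3. A second Arl3 probe was detected on no Art:Nfkb2-labelled array and averaged 8.80 in Art-labelled cells, and the Art:Nfkb2-labelled level was lower by at least 6.47-fold. The gene next in line on each side that was tested, Gbf1 and Fbxl15, differed by 0.08 and 0.24 and was not called. Lower calls also lay beyond the window. Btrc and Sfxn3, on the other side of Nfkb2, differed by -0.755 and -0.996 (limma adjusted p = 0.000459 and 0.00519). The tested genes between these and Nfkb2 were not called. Stn1, farther on than Arl3, differed by -0.468 (limma adjusted p = 0.0346). On chromosome 19 as a whole 10 of 290 tested genes were lower (3.45%), and on chromosome 3, which holds Trim2, Sass6, Fnbp1l and Cd1d1, 16 of 377 (4.24%). Chromosome 17, which holds the class II cluster, had 25 of 416 tested genes called higher (6.01%, against 3.01% of all genes).

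The same genotypes were compared 2 days after IL-7 withdrawal, on arrays with the same replicate numbers. Arrays of one genotype and number were taken as one culture, which the labels do not state. There 337 genes were called (3.99%), and 143 of the 371 genes called in IL-7 were also called in the same direction, which is 38.5% of the calls in IL-7 and 42.4% of those after withdrawal. Ctse differed by 3.70 and was called after withdrawal. Pglyrp1, Foxq1 and Fcgr3 were at least 8.74-, 5.60- and 3.56-fold higher there and undetected in Art-labelled cells, and Mfsd13a was at least 1.28-fold lower. Class II genes had 6 of 14 called higher (1.78% of all genes were), with a median of 0.74, and GIMAP genes 5 of 7. Chemokine and immediate early genes had 0 called after withdrawal by limma, 4 of each at an unadjusted p under 0.05. Their medians were 1.62 and 0.44 in IL-7, against 0.28 and -0.04 after withdrawal. With undetected genes at their bound the medians in IL-7 were 0.81 and 0.42, and those after withdrawal were not recomputed. Ccl5 differed by 1.19 (limma adjusted p = 0.198) and Fos by 0.74 (limma adjusted p = 0.31). Myeloid markers also had fewer calls there, 1 of 11 against 6 in IL-7, with a median of 0.497 against 1.334. Their summed linear level after withdrawal was 8212 to 11844 on Art:Nfkb2-labelled and 3605 to 4138 on Art-labelled arrays. C1q and Fc receptor genes had 3 of 12 called higher, against 7 in IL-7, with a median of 1.135. For proliferation genes 22 of 40 were called lower after withdrawal (2.21%), with a median of -0.80.

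The test of the difference between the 2 conditions called 18 genes (0.213%), 9 in each direction (0.107%), and 10 of these had been called in IL-7. Proliferation genes made up 6 of the 18, Kif11, Kif23, Kif2c, Nusap1, Tk1 and Top2a, named after their values were seen, and 16 of the 40 proliferation genes had an unadjusted p under 0.05. For 5 of the 6 the difference was more positive in IL-7 than after withdrawal. Of the 18, 0 were class II, chemokine, immediate early, or C1q and Fc receptor genes by limma, with 0, 7, 8 and 3 of those lists at an unadjusted p under 0.05. Arrays taken as one culture deviated together in the 2 conditions, with a consensus correlation of 0.349. With culture as a random block 88 genes were called (1.04%), among them all 18, and they included 12 proliferation genes, 2 chemokine genes (Ccl2 and Cxcl1), 2 immediate early genes (Klf6 and Zfp36), 1 Fc receptor family gene (Fcrl1) and 0 class II genes, of which 0 had an unadjusted p under 0.05. Kif11 differed by -0.71 in IL-7 and was at least 2.72-fold lower after withdrawal, where no Art:Nfkb2-labelled array detected it (limma adjusted p = 0.00843 for the change). Il9r, the IL-9 receptor gene, was at least 1.11-fold higher in IL-7 and at least 3.30-fold higher after withdrawal, undetected in Art-labelled cells both times. Mmp13, a collagenase, was 1.88-fold higher in IL-7 and at least 1.81-fold lower after withdrawal, where it was undetected in Art:Nfkb2-labelled cells (limma adjusted p = 0.0268 for the change). Its call in IL-7 was lost in 11 of 18 alternatives. Among them were median scaling, each Art-labelled array in IL-7 left out, and Art:Nfkb2-labelled replicate 1 or 3 left out.

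**Figure D5:**
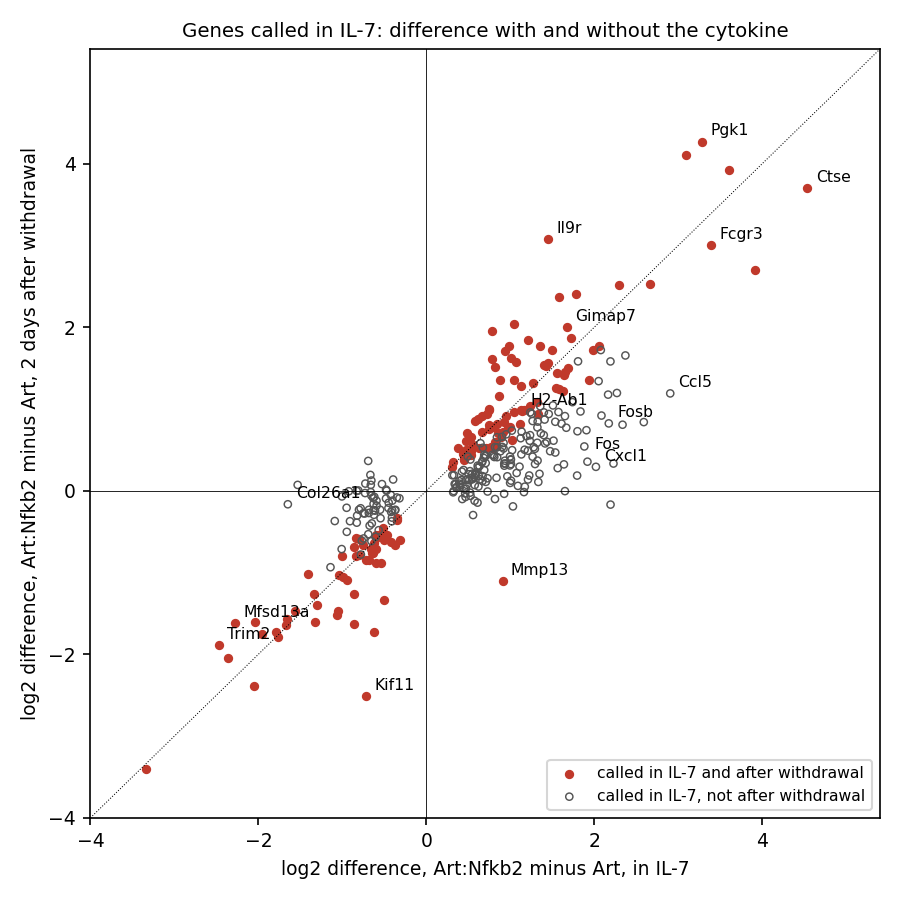
Each point is 1 of the 371 genes called in IL-7, with the log2 difference, Art:Nfkb2 minus Art, in IL-7 on the x axis and 2 days after withdrawal on the y axis. Filled points were called in both conditions, open points in IL-7 only by this threshold, and the dotted line marks equal differences. Differences are those of the fit, also for genes that a group did not detect. Ctse and Fcgr3 lie near the line at the upper right and Pgk1 above it, while Ccl5, Fos, Fosb and Cxcl1 lie below it.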

How the data were processed

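RNA of cultured pre-B cells was hybridised to Illumina MouseRef-8 arrays, 18 in all, of which 6 carry the comparison. Per the file headers, the deposited signal table gives a non-normalized intensity and a detection p-value for every probe on every array. A processed intensity by the authors stands in the deposited matrix, linear and with 29.5% to 29.7% of values below 0. The submitters' processing notes name Partek and GenomeStudio without version or role. No slide is named.

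Background correction that used the detection p-values was followed by quantile normalization and log2 with an offset of 16 (neqc, limma 3.58.1, R 4.3.3), which understates differences of dim genes. Probes detected at p under 0.01 on at least 3 arrays were kept (11356 of 25697), and the brightest stood for its gene, leaving 8446 entries, 673 of them named by probe ID because no symbol was given. For 2086 genes more than 1 probe passed. A gene undetected in 1 group could pass this filter through the group where it read high. A model over the 6 groups was fitted (lmFit, eBayes), with two-sided tests and Benjamini-Hochberg adjustment over all genes per comparison. SE is limma's moderated standard error, and the number of arrays limits the precision. Where no array of a group detected a gene, the fold is a bound. For it, each dim array took its own reading or the lowest reading of any detected probe, whichever was higher, and the mean of these was set against the mean of the brighter group. The fit was tested on simulated data with known changes.

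The members and gene lists were chosen with earlier results of these data known. The lists of immediate early, C1q and Fc receptor, chemokine, histone and GIMAP genes were added after the values were seen. Named are Nfkb2, Rag1 and Rag2, genes the study is known for, list members and the 15 largest called differences per direction without overlap. Genes within 20 table positions of Nfkb2 are named too. So are the largest differences between conditions among genes also called in IL-7. Other genes that a motif search or a chromosome named were chosen after their values were seen. Replicate numbers did not pair the 2 genotypes, since their same-numbered arrays in IL-7 correlated at 0.123, 0.137 and -0.111 in their deviations from the group means. Same-numbered arrays in IL-7 and after withdrawal correlated at 0.581, 0.402 and 0.588 in Art:Nfkb2-labelled cells. In Art-labelled cells they correlated at 0.41, 0.374 and 0.472. The main fit left this pairing out, and the fit with culture as a random block took it in. Alternatives covered scaling, background, offset, filter, probe choice, samples, blocks, a myeloid covariate and left-out arrays. Promoters came from RefSeq windows (GRCm38.p6), cropped to the 250 bases before the start.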

Additional observations from a re-analysis of the deposited data

Results flagged for a closer look

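The difference between Art:Nfkb2-labelled and Art-labelled cells was itself different in IL-7 and after withdrawal for 18 genes, by limma's interaction test. The values below are the difference in IL-7 minus the difference after withdrawal. They are given for up to 5 genes per direction, the largest among those also called in IL-7. Genes not called in IL-7, such as Kif2c and Nusap1, were left out whatever the size of their change. Each of these 7 genes was undetected in at least 1 of the 4 groups compared, so the values are those of the fit and not measured sizes. Mmp13 stood at 2.01 and Kif11 at 1.79, so that both differences were more positive in IL-7. Their calls in IL-7 were lost in 11 and 10 of 18 alternatives. Il9r stood at -1.63, Col26a1 at -1.48, Slc20a1, a phosphate transporter gene, at -1.18, Pgk1 at -0.98 and Ube2t, a ubiquitin-conjugating enzyme of cross-link repair, at -0.86. Groups of 3 arrays were not searched for single arrays that lie far out.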

How the results depend on the processing

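The 371 genes called between Art:Nfkb2-labelled and Art-labelled cells in IL-7 became 246 with median scaling in place of quantile normalization, 135 with the myeloid covariate and 197 without the culture of Art:Nfkb2-labelled replicate 3, both of the last chosen after seeing the data. Leaving out 1 of the 6 arrays gave 187 to 258 (187 without Art:Nfkb2-labelled replicate 1, 208 without replicate 3, 216, 247 and 210 without Art-labelled replicates 1, 2 and 3). The 254 higher calls became 81 with the covariate and 139 without that culture, and 140 to 188 with 1 array left out. The 117 lower calls became 64 with median scaling, 76 with the series matrix values, 54 with the covariate and 58 without that culture, and 47 to 70 with 1 array left out. The 18 genes of the difference between conditions became 8 with median scaling, 10 with the series matrix values, 11 with no background correction, 9 with no filter, 88 with culture as a random block and 4 without that culture, and 4 to 19 with 1 array left out (19 without Art-labelled replicate 1 of the withdrawn cells, 10 or fewer without any other). Calls after withdrawal ran from 215 to 259 with 1 array left out (215 without Art-labelled replicate 3), those of Art-labelled against Rag-labelled cells in IL-7 from 314 to 678 (314 without Rag-labelled replicate 3, 361 and 343 without Art-labelled replicates 2 and 3), and those of Art:Nfkb2-labelled against Rag-labelled cells from 668 to 988. Among the gene lists, the NF-kB targets had 10 calls in place of 6 with no background correction, with an offset of 50 or with only the 6 arrays fitted, and the proliferation genes 6 in place of 2 with no background correction and 7 with only the 6 arrays. The chemokine genes had 4 calls in place of 8 where detection on at least 6 arrays was required, and the myeloid markers 3 in place of 6 with the series matrix values. The interferon-stimulated genes had 1 in place of 3 with median scaling, 0 with only the 6 arrays and 5 with an offset of 50, and the NF-kB kinases and adaptors 3 higher calls in place of 1 with no background correction. The cause of these moves was not tested.

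With the replicate number as a block, 405 genes were called, and no count over all genes moved by over 1.5 times. Higher calls made up 68.5% of all calls in the values reported and 60.0% to 74.9% in the alternatives. Over 115 named genes and 2056 recomputed values, 1722 kept their direction and side of the threshold, 332 lost the threshold, 2 gained it (both Bcl3) and 0 changed direction. C1qb, Il1b, Tgfbi, Kansl1l and the unnamed probe ILMN_2455192 were among those lost when single arrays were left out, whereas Ctse, Camk2b, Pglyrp1, Fcgr3, Pgk1, Foxq1, Timmdc1, Mfsd13a, Kank1, C1qbp and Cd1d1 stayed called in all 18 alternatives. Dim genes near the background are the limit of these arrays.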
